A study of Mus musculus with 14 samples.

Results

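*Crabp2*, which encodes a cytosolic carrier of retinoic acid, and 8 other genes of the retinoic acid pathway were followed in activated mouse CD4+ T cells. Mutant cells had both *Hdac1* alleles deleted, alone or together with 1 *Hdac2* allele, and were compared with WT cells. The 9 genes were *Crabp2*, *Fabp5*, *Rara*, *Rarg*, *Rxra*, *Rxrb*, *Dhrs3*, *Rdh10*, and *Cyp26b1*, out of 31097 annotated genes with a value in every sample of both experiments. They were selected on measured values, since the high *Crabp2* level of the HDAC1cKO-HDAC2HET cells led to the choice. The differences between HDAC1cKO-HDAC2HET and WT cells are therefore given for the 9 genes as a description without a p value, and only the second experiment was tested for them.

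RNA-Seq was done on 14 samples from 2 experiments with C57BL/6 mice between 6 and 12 weeks of age. In the first, sorted naive CD4+ T cells of 4 WT and 4 HDAC1cKO-HDAC2HET samples (genotype HDAC1f/f HDAC2f/+ CD4-cre+) were cultured for 3 days on anti-CD3 and anti-CD28 with added IL-2. The second used cells of 3 WT and 3 HDAC1cKO samples (genotype HDAC1f/f CD4-cre+), which after such a 3-day culture received anti-CD3 once more for 12 hours. WT animals were littermates. Cre was driven by *Cd4* sequences, so that both *Hdac1* alleles, and in HDAC1cKO-HDAC2HET mice 1 *Hdac2* allele, were deleted in T cells while other cells kept them, and all cells had matured in the animal without the deleted alleles before they were activated. The culture conditions given by the study list no added retinoid, but the medium contained fetal calf serum, whose retinoid content was not given. Since culture and genotype both distinguish the 2 experiments, levels were compared only within an experiment.

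Retinol taken up by a cell is oxidized to retinaldehyde and then to retinoic acid, the active hormone. Retinoic acid is carried to the nucleus by CRABP2, which passes it to the retinoic acid receptors, or by FABP5, which passes it to PPARδ. The receptors RARα and RARγ bind DNA as pairs with the retinoid X receptors, and in the absence of ligand they recruit corepressor complexes that contain histone deacetylases. In T cells retinoic acid is best known for inducing gut-homing receptors and for its effects on regulatory and effector differentiation.

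The labels were borne out by the deleted genes. *Hdac1* was at 78.1 ± 1.44 FPKM (SD, n = 4) in WT and 8.30 ± 1.89 (n = 4) in HDAC1cKO-HDAC2HET cells, and at 75.6 ± 4.78 (n = 3) in WT and 10.1 ± 1.82 (n = 3) in HDAC1cKO cells. *Hdac2* was 1.67-fold lower in HDAC1cKO-HDAC2HET than in WT cells and 1.11-fold of WT in HDAC1cKO cells. FPKM are fragments per kilobase of transcript, scaled to the number of mapped fragments, a scale on which different genes can be compared. The depth estimated from the deposited confidence bounds was 23900000 to 56000000 fragments per sample, and no 2 samples held identical values. All 7 T cell markers, among them *Cd3e* and *Cd4*, were above 1 FPKM in every sample, with a sum of 1456 to 1589 FPKM in WT and 1112 to 1182 in HDAC1cKO-HDAC2HET cells and of 1195 to 1566 in WT and 1374 to 1532 in HDAC1cKO cells. The 4 B cell markers summed to 0.497 to 0.945 FPKM in WT and 2.78 to 4.38 in HDAC1cKO-HDAC2HET cells, of which *Cd79b* made up most in the latter group but not in WT. *Xist*, which is transcribed from the inactive X chromosome of female cells, was at 58.9 to 65.2 FPKM in these WT and at 26.0 to 33.7 in the HDAC1cKO-HDAC2HET samples, without overlap. The part of either in the results was not tested. In these bulk samples, a change in the number of cells that express a gene and a change in RNA per cell cannot be told apart.

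Before the values, the sequence upstream of 3 of the genes is shown, since in HDAC1cKO-HDAC2HET cells *Dhrs3* was the lowest of the 9 genes relative to WT and *Rara* and *Rarg*, which encode receptors of the same family, differed from WT in opposite directions. RefSeq promoter sequences (GRCm38.p6, the build of the files) were found for 6 of the 9 genes, namely *Rara*, *Rarg*, *Rxra*, *Rxrb*, *Dhrs3*, and *Cyp26b1*. The 250 bases before an annotated start are given 5′ to 3′ on the strand of the gene, for *Dhrs3* at chr4:144892577-144892826 (plus strand), for *Rara* at chr11:98937446-98937695 (plus strand), and for *Rarg* at chr15:102257523-102257772 (minus strand). Capitals mark matches on either strand to a half-site bound by retinoid receptors, that is to AGGTCA, to its variant AGTTCA, to a further variant GGGTCA, or to the last one searched, GGTTCA.
Dhrs3: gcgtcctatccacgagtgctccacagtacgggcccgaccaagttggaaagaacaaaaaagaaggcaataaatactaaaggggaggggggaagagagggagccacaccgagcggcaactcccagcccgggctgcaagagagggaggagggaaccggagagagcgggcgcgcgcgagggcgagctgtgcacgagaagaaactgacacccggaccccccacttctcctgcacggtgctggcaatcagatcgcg
Rara: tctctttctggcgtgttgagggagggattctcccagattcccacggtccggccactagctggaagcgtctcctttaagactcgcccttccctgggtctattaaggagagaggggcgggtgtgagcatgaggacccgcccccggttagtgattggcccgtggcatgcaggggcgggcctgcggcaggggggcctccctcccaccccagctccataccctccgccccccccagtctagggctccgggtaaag
Rarg: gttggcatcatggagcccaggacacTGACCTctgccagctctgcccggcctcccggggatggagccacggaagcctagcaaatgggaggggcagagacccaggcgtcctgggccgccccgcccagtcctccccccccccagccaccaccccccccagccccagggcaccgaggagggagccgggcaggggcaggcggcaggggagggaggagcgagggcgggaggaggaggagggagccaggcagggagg
The *Rarg* window held 1 match to AGGTCA, read as TGACCT on the strand shown, which begins 225 bases before the start. The *Dhrs3* and *Rara* windows shown held no match. Other annotated starts of the same genes differed from these, since 1 of the other 3 *Rara* windows (chr11:98939461-98939710, plus strand) held 4 matches, none of them to AGGTCA and the most of any window, while the second *Rarg* window held 0. Over all 14 annotated start windows of the 6 genes, 3 held a match to any of the half-sites, and in 2 of these it was to AGGTCA. Of 32536 distinct promoter windows of this length, 14% held AGGTCA on either strand and 38.6% held any of the half-sites. A match is a description of letters, and no binding was measured here. The *Dhrs3*, *Rara*, and *Rarg* windows consisted of 61.6%, 65.2%, and 74.4% G and C, compared with a median of 52.4% over all windows.

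Of the 8 genes that could be fitted, *Crabp2* had the largest log2 fold change in both experiments. In the first experiment its level was 25.9, 23.1, 26.1, and 22.5 FPKM in the WT samples and 386, 365, 444, and 445 FPKM in the HDAC1cKO-HDAC2HET samples. All 4 HDAC1cKO-HDAC2HET samples lay far above all WT samples. The mean was 410 ± 40.7 (SD, n = 4) compared with 24.4 ± 1.83 (n = 4), a 16.8-fold ratio of means and a log2 fold change of 4.06 with a standard error of 0.08. By mean FPKM, *Crabp2* stood at place 3351 of 19063 protein-coding genes in WT and at place 155 in HDAC1cKO-HDAC2HET cells. Of the 15131 genes fitted, 38 had a larger rise. *Crabp2* lies at chr3:87948666-87953376 on the plus strand, overlaps no other annotated gene, and shares no stretch of 50 bases, the read length, with the transcripts of another gene.

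In the second experiment *Crabp2* was at 88.1, 74.9, and 36.9 FPKM in WT and at 188.9, 150, and 188.1 FPKM in HDAC1cKO samples. Every HDAC1cKO sample was again above every WT sample, but the WT samples differed from each other by more than 2-fold. The mean was 2.63-fold that of WT, at 176 ± 22.4 (n = 3) compared with 66.6 ± 26.5 (n = 3), and the log2 fold change was 1.48 with a 95% interval of 0.68 to 2.29. It did not pass the test after adjustment over all 14025 genes (limma, unadjusted p = 0.00409, adjusted p = 0.191). An exact permutation test gave p = 0.1, the smallest value that 3 against 3 samples allow. Sex was not balanced in this experiment, since *Xist* was at 42.9 and 33.2 FPKM in WT replicates 1 and 3 and at or below 0.0435 FPKM in WT replicate 2 and in all HDAC1cKO samples. Among the samples without *Xist*, the single WT sample had 74.9 FPKM of *Crabp2* compared with 150 to 188.9 in HDAC1cKO samples, and with sex as a covariate the log2 fold change was 1.22 (SE 0.50, limma adjusted p = 0.477). A fit over all 14 samples gave the same log2 fold change with a limma adjusted p of 0.0047. That fit assumes 1 spread for both experiments and draws it in part from the first, which led to the choice of the genes. The SD of *Crabp2* was 7.48% and 9.91% of the mean in the WT and HDAC1cKO-HDAC2HET groups of the first experiment. In the second it was 39.8% in WT and 12.7% in HDAC1cKO samples. This p value is therefore not counted as a test of the second experiment. Whether the change of *Crabp2* differed between the experiments was not tested.

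**Figure D1:**
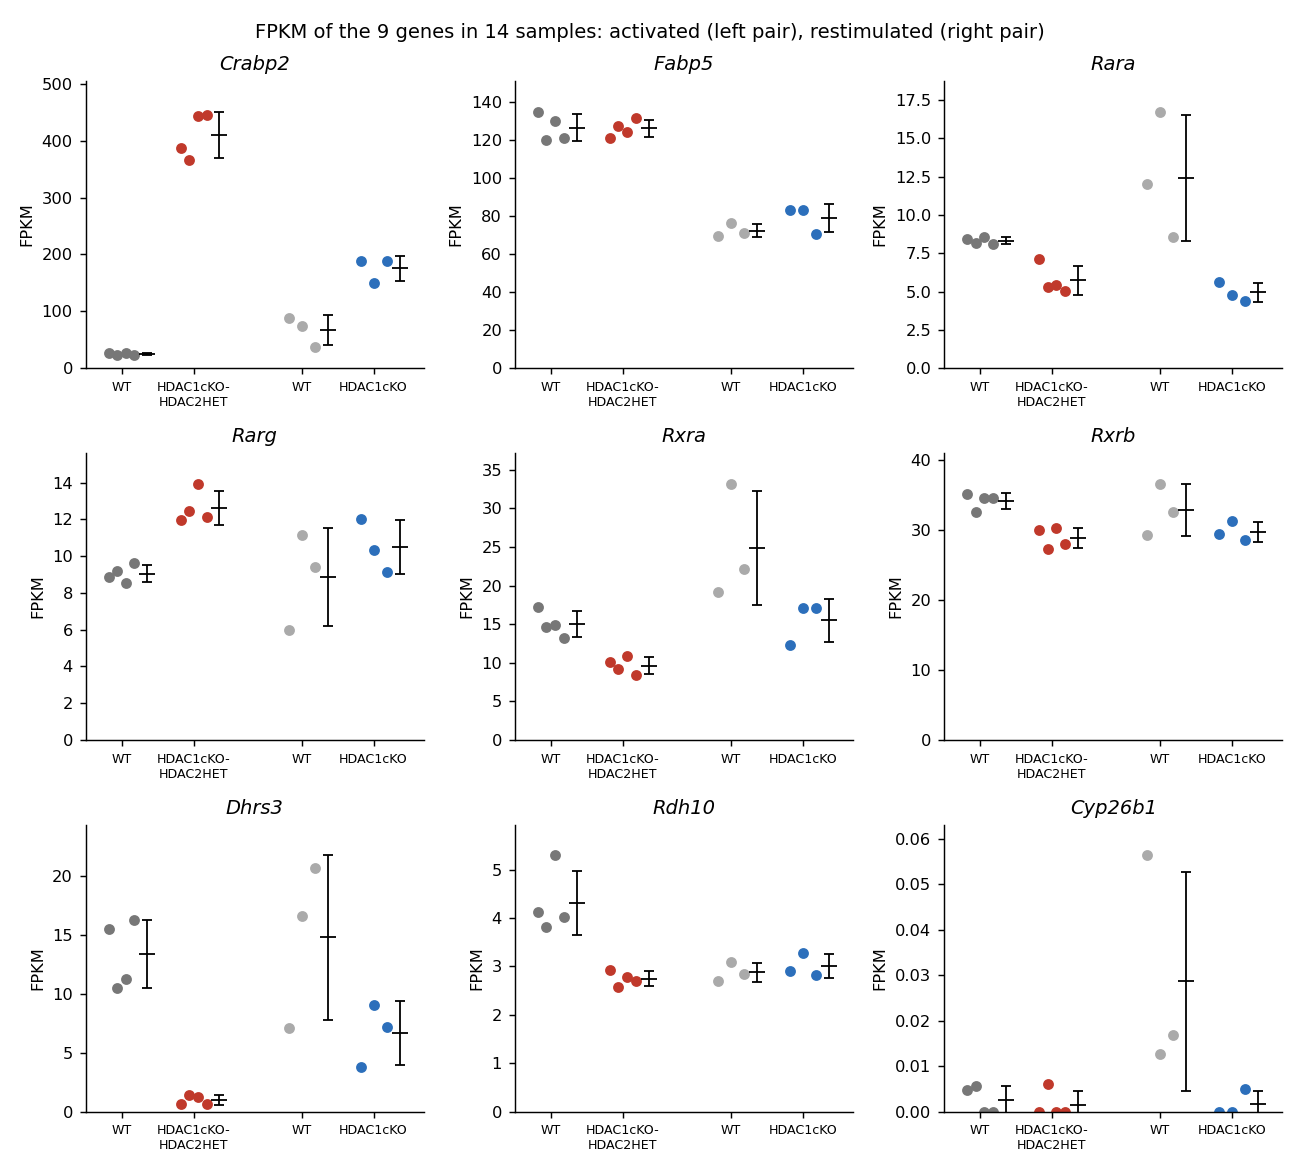
FPKM of the 9 genes on linear axes that start at 0, with 1 point per sample and the mean and SD beside each group; the left pair is WT (n = 4) and HDAC1cKO-HDAC2HET (n = 4) after activation, and the right pair WT (n = 3) and HDAC1cKO (n = 3) after restimulation. *Crabp2* is at 365 to 445 FPKM in HDAC1cKO-HDAC2HET and at 22.5 to 26.1 in WT samples, *Dhrs3* shows the opposite order, and *Fabp5* overlaps between the groups.

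*Fabp5*, the carrier that delivers retinoic acid to PPARδ, was among the most abundant mRNAs of the pathway, and its groups overlapped in both experiments. It was at 135, 120, 130, and 121 FPKM in WT and at 121, 128, 124, and 132 FPKM in HDAC1cKO-HDAC2HET samples. The log2 fold change was −0.00 (SE 0.05). After restimulation *Fabp5* was at 69.6, 76.2, and 71.4 FPKM in WT and at 83.2, 83.3, and 70.5 FPKM in HDAC1cKO samples. The difference of 0.12 on the log2 scale, with a 95% interval of −0.10 to 0.34, did not pass the test (limma adjusted p = 0.582). Of the 50-base stretches of the *Fabp5* transcripts, 5.48% also occur in 5 other genes with near-identical sequence, so that a small part of its reads may have been shared.

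The level of 1 carrier mRNA relative to the other was also taken within each sample. There the ratio of *Crabp2* to *Fabp5* FPKM was 0.186 to 0.20 in the 4 WT samples and 2.86 to 3.58 in the 4 HDAC1cKO-HDAC2HET samples. *Fabp5* was the more abundant carrier mRNA in each of these WT samples, and *Crabp2* in each HDAC1cKO-HDAC2HET sample. After restimulation the ratio was 0.518 to 1.27 in WT and 1.80 to 2.67 in HDAC1cKO samples, and the groups did not overlap.

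In the first experiment the 4 receptor genes differed far less than *Crabp2*. *Rarg*, which encodes RARγ, was at 8.87, 9.17, 8.54, and 9.63 FPKM in WT and at 12, 12.5, 13.9, and 12.1 FPKM in HDAC1cKO-HDAC2HET samples, a log2 fold change of 0.47 (SE 0.06). *Rara*, which encodes RARα, was at 8.45, 8.17, 8.59, and 8.11 FPKM in WT and at 7.14, 5.29, 5.41, and 5.07 FPKM in HDAC1cKO-HDAC2HET samples, a log2 fold change of −0.55 (SE 0.10). Neither gene overlapped between the groups, *Rarg* being higher and *Rara* lower in all 4 HDAC1cKO-HDAC2HET samples. *Rarg* and *Rara* were nearly equal in WT, at a ratio of 0.995 to 1.19 within a sample, and in HDAC1cKO-HDAC2HET cells the ratio was 1.68 to 2.58.

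Among the RXR genes, whose products pair with both receptors, *Rxra* was at 17.2, 14.7, 14.9, and 13.2 FPKM in WT and at 10.1, 9.18, 10.8, and 8.38 FPKM in HDAC1cKO-HDAC2HET samples. *Rxrb*, the most abundant receptor gene of the pathway in all 4 groups, was at 35.1, 32.5, 34.5, and 34.5 FPKM in WT and at 29.9, 27.2, 30.2, and 28.0 FPKM in HDAC1cKO-HDAC2HET samples. Both were lower in every HDAC1cKO-HDAC2HET sample than in any WT sample, with log2 fold changes of −0.64 (SE 0.10) for *Rxra* and −0.24 (SE 0.04) for *Rxrb*. The ratio of *Rxra* to *Rxrb* was 0.383 to 0.492 in WT and 0.299 to 0.358 in HDAC1cKO-HDAC2HET samples.

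In the restimulated cells *Rara* was at 12, 16.7, and 8.54 FPKM in WT and at 5.64, 4.80, and 4.41 FPKM in HDAC1cKO samples, which did not overlap. Its log2 fold change of −1.27 had a 95% interval of −1.89 to −0.64 and did not pass the test (limma unadjusted p = 0.00247, adjusted p = 0.176). The fit over all 14 samples gave *Rara* a limma adjusted p of 0.0035, with the same limit as for *Crabp2*. The SD of *Rara* was 33.1% of the mean in these WT samples and 2.72% in those of the first experiment. *Rxra* was at 19.2, 33.2, and 22.1 FPKM in WT and at 12.3, 17.1, and 17.1 FPKM in HDAC1cKO samples, with no overlap and a log2 fold change of −0.66 (SE 0.24, limma adjusted p = 0.314). *Rarg* overlapped between the groups, at 5.95 to 11.2 FPKM in WT and 9.12 to 12.03 in HDAC1cKO samples (log2 fold change 0.28, 95% interval −0.33 to 0.89, limma adjusted p = 0.624). *Rxrb* overlapped as well, at 29.3 to 36.6 FPKM in WT and 28.6 to 31.3 in HDAC1cKO samples (−0.14, 95% interval −0.38 to 0.11, limma adjusted p = 0.573). Without WT replicate 2, the log2 fold change was −0.43 for *Rxra* and −0.057 for *Rxrb*, and without WT replicate 1 it was 0.024 for *Rarg*. The WT sample without *Xist* (replicate 2) had the highest level of the 3 WT samples for all 4 receptor genes, and with sex as a covariate the log2 fold change was −1.75 for *Rara*, −1.11 for *Rxra*, −0.30 for *Rxrb*, and −0.10 for *Rarg*. The ratio of *Rarg* to *Rara* within a sample was 0.495 to 1.10 in WT and 2.07 to 2.16 in HDAC1cKO cells.

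**Figure D2:**
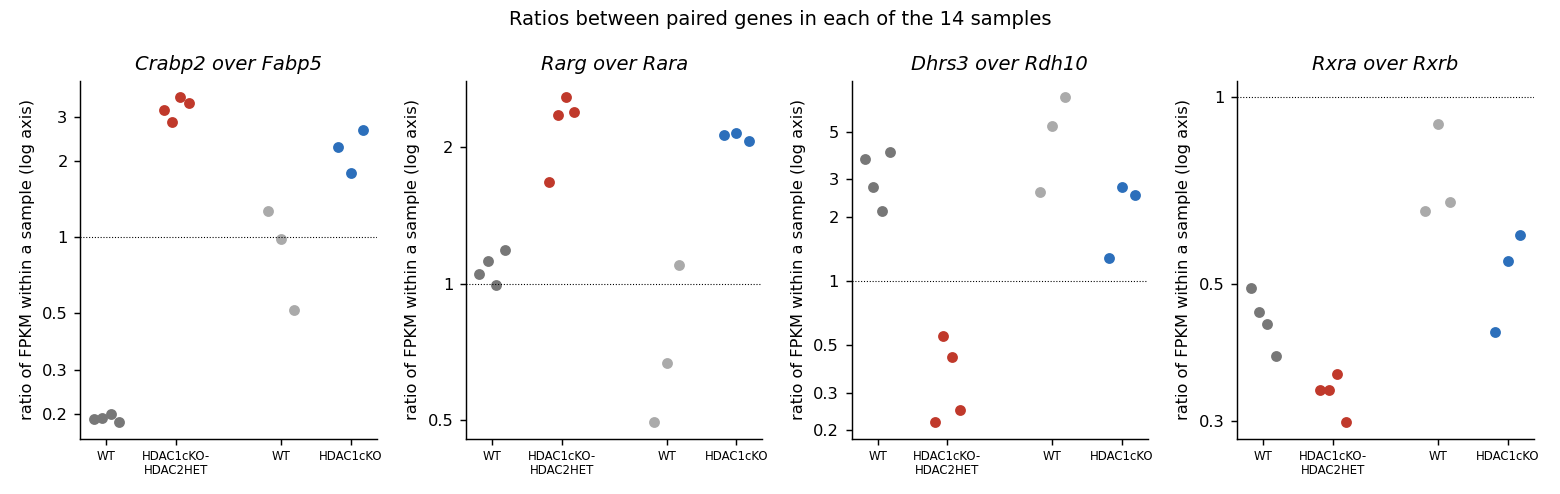
Ratio of FPKM between 2 genes within a sample on log axes, 1 point per sample, for the carriers (*Crabp2* over *Fabp5*), the receptors (*Rarg* over *Rara* and *Rxra* over *Rxrb*), and the opposing enzymes (*Dhrs3* over *Rdh10*); the dotted line marks equal levels. The carrier ratio is 0.186 to 0.20 in WT and 2.86 to 3.58 in HDAC1cKO-HDAC2HET cells, and 0.518 to 1.27 in WT and 1.80 to 2.67 in HDAC1cKO cells.

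In the first experiment, the largest difference in the opposite direction to *Crabp2* was that of *Dhrs3*. DHRS3 reduces retinaldehyde back to retinol and so lowers the supply of retinoic acid, and its gene is itself known to be induced by retinoic acid in many cell types. *Dhrs3* was at 15.5, 10.5, 11.3, and 16.3 FPKM in WT and at 0.639, 1.42, 1.22, and 0.675 FPKM in HDAC1cKO-HDAC2HET samples. Every HDAC1cKO-HDAC2HET sample was below every WT sample by a wide margin. The mean was 13.5-fold lower, at 0.989 ± 0.393 (SD, n = 4) compared with 13.4 ± 2.91 (n = 4), and the log2 fold change was −3.68 (SE 0.28). With a pseudocount of 1 in place of 0.1 it was −2.85. Of the genes fitted, 60 had a larger fall. *Dhrs3* in restimulated cells was at 7.09, 16.6, and 20.7 FPKM in WT and at 3.75, 9.07, and 7.14 FPKM in HDAC1cKO samples. WT replicate 1 lay within the range of the HDAC1cKO samples, and the log2 fold change of −1.09, with a 95% interval of −2.30 to 0.11, did not pass the test (limma adjusted p = 0.381). *Dhrs3* lies at chr4:144892827-144928209 on the plus strand.

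*Rdh10* encodes the retinol dehydrogenase that catalyses the reverse step, the oxidation of retinol to retinaldehyde. It was at 4.12, 3.82, 5.29, and 4.03 FPKM in WT and at 2.93, 2.57, 2.78, and 2.71 FPKM in HDAC1cKO-HDAC2HET samples, which did not overlap (log2 fold change −0.62, SE 0.11). After restimulation it was at 2.70, 3.09, and 2.84 FPKM in WT and at 2.91, 3.29, and 2.83 FPKM in HDAC1cKO samples, with a difference of 0.06 on the log2 scale, a 95% interval of −0.27 to 0.39, and a limma adjusted p of 0.863. The ratio of *Dhrs3* to *Rdh10* was 2.13 to 4.04 in the first WT group and 0.218 to 0.554 in HDAC1cKO-HDAC2HET cells, so that the more abundant of these 2 mRNAs was *Dhrs3* in each WT sample and *Rdh10* in each HDAC1cKO-HDAC2HET sample. In the restimulated cells the ratio was 2.63 to 7.27 in WT and 1.29 to 2.76 in HDAC1cKO samples, and the groups overlapped.

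*Cyp26b1*, which encodes a hydroxylase that breaks down retinoic acid, was at or close to 0 in all samples. It was listed at 0 in 2 of 4 WT, 3 of 4 HDAC1cKO-HDAC2HET, and 2 of 3 HDAC1cKO samples, and the highest value of all 14 samples was 0.0563 FPKM, in a restimulated WT sample. The gene was below the minimum mean of 0.1 FPKM and was fitted in neither experiment.

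Thus 8 of the 9 genes could be fitted. In the first experiment 7 of the 8 did not overlap between the groups, 2 of them higher (*Crabp2* and *Rarg*) and 5 lower (*Rara*, *Rxra*, *Rxrb*, *Dhrs3*, and *Rdh10*) in HDAC1cKO-HDAC2HET cells, compared with 50.3% of all 15131 genes. Since this comparison led to the choice of the genes, nothing is read from this count. In the second experiment none of the 8 genes passed the test by limma (adjusted p of at most 0.05), compared with 0.0927% of all 14025 genes (13 genes), and none was at a 2-fold change with such a p, compared with 0.0784% of all genes. At an unadjusted p under 0.05 there were 3 of the 8 genes (*Crabp2*, *Rara*, and *Rxra*), compared with 14.2% of all genes. The same 3 genes did not overlap between the groups, as was the case for 22.3% of all genes. The median log2 fold change of all genes was −0.05 in the first and −0.03 in the second experiment.

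**Figure D3:**
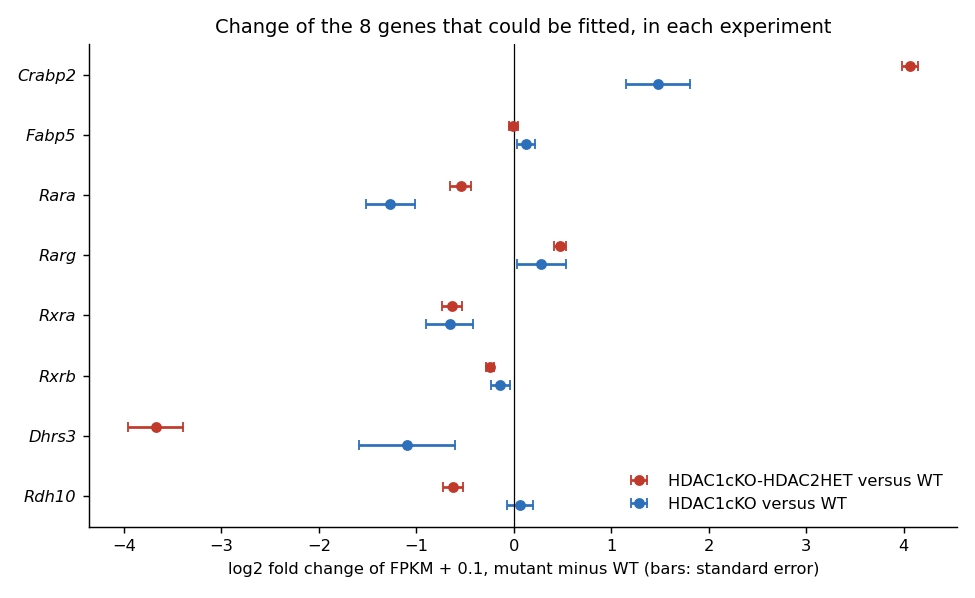
Log2 fold change of FPKM + 0.1, mutant minus WT, for the 8 genes that could be fitted, with bars for the standard error; red is HDAC1cKO-HDAC2HET versus WT (4 against 4 samples) and blue HDAC1cKO versus WT (3 against 3). *Crabp2* is at 4.06 and 1.48 and *Dhrs3* at −3.68 and −1.09, while the other 6 genes lie between −1.27 and 0.47.

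In the WT cells of the first experiment, mean FPKM was highest for *Fabp5* (127), followed by *Rxrb* (34.1), *Crabp2* (24.4), *Rxra* (15.0), *Dhrs3* (13.4), *Rarg* (9.05), *Rara* (8.33), and *Rdh10* (4.31). Samples of neighbouring genes in this order overlapped for *Rxra* and *Dhrs3* and for *Rarg* and *Rara* only. In HDAC1cKO-HDAC2HET cells the order was *Crabp2* (410), *Fabp5* (126), *Rxrb* (28.9), *Rarg* (12.6), *Rxra* (9.62), *Rara* (5.72), *Rdh10* (2.75), and *Dhrs3* (0.989), and no neighbours overlapped. *Crabp2* had thus moved from the third to the first place and *Dhrs3* from the fifth to the eighth. After restimulation, the ranges of *Fabp5* and *Crabp2* overlapped in WT cells, with means of 72.4 and 66.6 FPKM, whereas in HDAC1cKO cells *Crabp2* was first, at 176 FPKM, and did not overlap with *Fabp5*, at 79.0 FPKM.

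The other genes of retinoid metabolism and signalling comprised 64 genes in 7 lists. In the first experiment 32 of them were fitted, of which 12 rose and 14 fell at a limma adjusted p of at most 0.05, and their median log2 fold change was −0.13. Over all 15131 genes, 24.2% rose and 27.6% fell (51.8% in all), which is the background for this and the following counts of the first experiment. Of the list genes, 4 rose and 4 fell by at least 2-fold, and 11.2% of all genes changed by as much in either direction. In the second experiment 31 were fitted, none passed the test by limma, 6 were at an unadjusted p under 0.05 (14.2% of all genes were), and the median was −0.10. The rest, among them *Rdh1*, *Rdh9*, and *Ccr9*, were below the minimum mean or are not analysed here.

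The list for conversion of retinol and retinaldehyde also holds genes for other steps, such as *Dgat1*. Of its 12 fitted genes, 4 rose and 6 fell in HDAC1cKO-HDAC2HET cells, the 6 including a locus that *Rdh5* shares with *Bloc1s1*. *Rdh12*, which encodes another retinaldehyde-reducing enzyme, was at 3.71, 3.49, 4.41, and 3.94 FPKM in WT and at 1.24, 1.07, 1.18, and 1.36 FPKM in HDAC1cKO-HDAC2HET samples (log2 fold change −1.60, SE 0.10, limma adjusted p = 1.1e-05). *Dhrs9*, which encodes a dehydrogenase that can oxidize retinol, fell from 0.916 ± 0.130 to 0.245 ± 0.0861 FPKM (SD, n = 4 each; limma adjusted p = 0.00028). *Dhrs4*, which encodes an NADPH-dependent retinal reductase, fell from 22.2 ± 1.59 to 11.0 ± 0.758 FPKM (limma adjusted p = 1.3e-05). *Rdh11*, a retinal reductase gene as well, fell from 41.5 to 28.4 FPKM (log2 fold change −0.54, limma adjusted p = 0.00043). Among the genes that rose, *Adh5* went from 83.4 to 105 FPKM (0.33, limma adjusted p = 0.00023) and *Dgat1*, which encodes an enzyme that can esterify retinol, from 7.20 to 10.6 FPKM (0.55, limma adjusted p = 0.00071). *Adh4* rose from 0.877 ± 0.151 to 2.2 ± 1.34 FPKM (1.08, limma adjusted p = 0.046), with a wide spread of 1.02 to 4.09 FPKM between HDAC1cKO-HDAC2HET samples. The shared locus of *Rdh5* also counts among the 14 genes that fell, and its value of 52.7 FPKM in WT and 47.3 in HDAC1cKO-HDAC2HET cells cannot be assigned to either gene.

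In the restimulated cells none of these genes passed the test. *Rdh12* was at 5.40, 5.64, and 6.16 FPKM in WT and at 3.59, 3.98, and 3.75 FPKM in HDAC1cKO samples, without overlap (log2 fold change −0.59, SE 0.11, limma adjusted p = 0.165). *Dhrs4* was at 19.96 ± 3.49 FPKM in WT and 18.3 ± 1.00 in HDAC1cKO samples (SD, n = 3 each), and *Dhrs9* at 2.39 ± 0.577 and 2.39 ± 0.333 FPKM.

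Of the 4 genes for the oxidation of retinaldehyde to retinoic acid, 2 were fitted in the first experiment and both rose. *Aldh1a2* was at 0.448, 0.20, 0.324, and 0.218 FPKM in WT and at 1.28, 1.36, 0.975, and 1.10 FPKM in HDAC1cKO-HDAC2HET samples (log2 fold change 1.72, SE 0.22, limma adjusted p = 0.00034), a low level in both groups. After restimulation it was at 0.0261 to 0.140 FPKM in WT and at 0.113 to 0.518 in HDAC1cKO samples, which overlapped. The genes *Cyp26a1* and *Cyp26c1* for breakdown of retinoic acid were, like *Cyp26b1*, not fitted in either experiment.

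Of the 8 further genes of retinoid binding and transport, 2 were fitted in the first experiment, of which 1 rose and 1 fell, and 1 was fitted in the second, where it did not pass the test.

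Among 12 other receptor and coregulator genes, 10 were fitted, 3 rose, and 5 fell in HDAC1cKO-HDAC2HET cells, none by 2-fold. *Ppard*, which encodes the receptor served by FABP5, rose from 9.23 to 11.1 FPKM (log2 fold change 0.26, limma adjusted p = 0.0017). The coactivator genes *Ncoa2* (21.4 to 13.9 FPKM), *Ncoa3* (35.7 to 28.9 FPKM), and *Ep300* (16.0 to 12.2 FPKM) fell, as did *Nrip1*, a retinoic acid-inducible corepressor gene (15.2 to 13.1 FPKM), with limma adjusted p values between 3.5e-05 and 0.027. *Ncor1*, at 36.1 and 33.5 FPKM, and *Med1*, at 15.9 and 14.2 FPKM, did not pass the test (limma adjusted p = 0.051 and 0.16). In the second experiment *Ncoa2* had the smallest adjusted p of this named group, with 33.0 ± 6.69 FPKM in WT and 21.1 ± 0.742 in HDAC1cKO samples (limma adjusted p = 0.212).

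Genes listed as responding to retinoic acid did not all move in 1 direction, and whether they respond in these cells was not tested. Of the 6 fitted in the first experiment, 2 rose (*Tgm2* and *Itga4*). Another 2 fell, *Itgb7* by only −0.26 and *P2rx7* on poorly determined values. The median log2 fold change of the 6 was 0.42. That median is raised by a gene without signal in WT cells, whose log2 fold change was 1.08 (SE 0.98, limma adjusted p = 0.393). Its mean of 0.48 FPKM in HDAC1cKO-HDAC2HET cells came from 1 sample, with 1.92 FPKM. *Tgm2*, a transglutaminase gene induced by retinoic acid in many cells, was at 12.6, 4.34, 13.3, and 5.48 FPKM in WT and at 34.4, 33.2, 20.6, and 28.1 FPKM in HDAC1cKO-HDAC2HET samples (log2 fold change 1.83, SE 0.39, limma adjusted p = 0.0052). The *Tgm2* span shares 15896 of its 30035 bases with *Rprd1b* on the other strand, and the part of that gene in the values was not tested. *Itga4*, the α4 subunit of a gut-homing integrin, rose from 7.78 to 11.7 FPKM (0.58, limma adjusted p = 0.00031), whereas *Itgb7*, its β7 partner, fell from 61.1 to 51.2 FPKM (−0.26, limma adjusted p = 0.026). The ATP receptor gene *P2rx7* was at 2.71, 3.23, 2.85, and 2.41 FPKM in WT and at 0.436, 0.357, 0.612, and 0.436 FPKM in HDAC1cKO-HDAC2HET samples (−2.38, SE 0.15, limma adjusted p = 1.3e-05). These estimates were poorly determined, since the deposited bounds of the WT values ran from 0 to between 12.97 and 18.2 FPKM, an error that the test does not use. In restimulated cells *P2rx7* was at 2.41, 3.85, and 3.60 FPKM in WT and at 1.85, 1.29, and 1.21 FPKM in HDAC1cKO samples, without overlap but short of the threshold (−1.12, SE 0.26, limma adjusted p = 0.192), and the lower bound was 0 in all 6 samples. *Tgm2* was not analysed here in the second experiment.

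**Figure D4:**
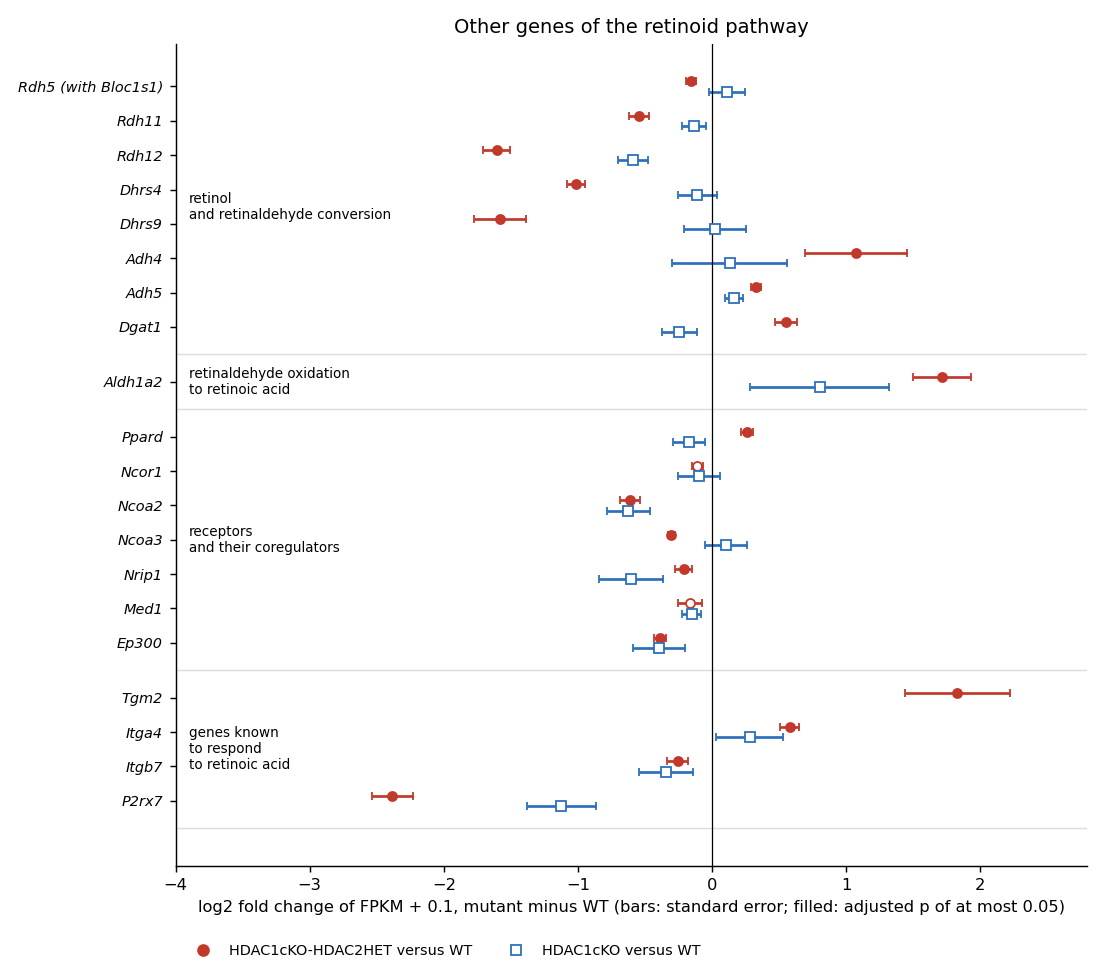
Log2 fold change of FPKM + 0.1, mutant minus WT, with bars for the standard error, for the other retinoid pathway genes reported here with a 2-fold change or a mean of at least 10 FPKM, grouped by list; red circles are HDAC1cKO-HDAC2HET versus WT, blue squares HDAC1cKO versus WT, and filled symbols an adjusted p of at most 0.05. *Tgm2* (1.83) and *Aldh1a2* (1.72) lie farthest to the right and *P2rx7* (−2.38) and *Rdh12* (−1.60) farthest to the left, all in red, and no blue symbol is filled; the standard error does not include the wide deposited bounds of *P2rx7*.

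The genes whose pattern over the 14 samples was most like that of *Crabp2* were *Ssx2ip*, *Gatad2a*, *Pcbp4*, *Agpat4*, and *Copb2*. The likeness was measured as Pearson's r of log2(FPKM + 0.1), centred on the WT mean of each experiment, among 12361 genes, and is a description only, since all samples of a group share their culture and genotype. It was 0.993 for *Ssx2ip*, which encodes a centrosome-associated adaptor, and at least 0.990 for the other 4. Their changes were much smaller than that of *Crabp2*. *Ssx2ip* was at a mean of 7.03 FPKM in WT and 13.6 in HDAC1cKO-HDAC2HET cells, and *Agpat4*, which encodes a lysophospholipid acyltransferase, at 13.1 and 38.2 FPKM. *Pcbp4*, which encodes an RNA-binding protein, was at 7.80 and 28.2 FPKM. After restimulation *Pcbp4* was at 7.17 FPKM in WT and 11.7 in HDAC1cKO cells. Measured the same way, r with *Crabp2* was −0.97 for *Dhrs3*, −0.84 for *Rdh10*, −0.79 for *Rxrb*, −0.69 for *Rxra*, 0.66 for *Rarg*, −0.39 for *Rara*, and −0.02 for *Fabp5*.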

How the data were processed

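RNA-Seq libraries of 14 samples were grouped by their labels. According to the methods, the authors mapped 50-bp reads to mm10 with TopHat 2.0.13 and made the deposited FPKM values, with confidence bounds, per library with Cufflinks 2.2.1; the submitters' processing notes also list STAR 2.5.2b and Subread 1.5.1 without a role. No counts were used. Because assembly was done per library, a gene can be a named row in 1 file and an unnamed locus in another. Such loci were matched to GENCODE vM21 spans (GRCm38) when they shared at least 0.8 of the joint span, and a locus without a usable estimate, or loci that differed between samples of an experiment, left the gene out. *Crabp2* was named in all samples of the first experiment and matched by position in the second; *Rara*, *Rxra*, and *Rxrb* were matched throughout. Per-library assembly can change the transcript length behind an FPKM value.

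The fits were made with limma 3.58.1 (R 4.3.3), separately for each experiment, on log2(FPKM + 0.1) with an intensity trend, for genes whose mean FPKM reached 0.1, and with Benjamini-Hochberg adjustment over all of them. Fold changes are on that scale, which understates those of low genes. Permutation tests were exact and two-sided over 20 arrangements. The fit was tried on simulated data with independent noise, equal spread in both groups, and few changed genes. That trial does not cover features of these data such as the sex imbalance. The 9 genes, the gene lists, and the tests were chosen with earlier results of these data known. Beside all 9 genes, the text names list genes with a 2-fold change (adjusted p of at most 0.05) or a mean of at least 10 FPKM in a group, and the 5 genes most correlated with *Crabp2*. The labels do not tie samples to single animals, so p values measure the spread between these samples. Values of a few genes are not reported here; the counts include those genes. Promoter sequences are from RefSeq. Tables were made with pandas 2.3.3 and figures with matplotlib.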

Additional observations from a re-analysis of the deposited data

Results flagged for a closer look

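In groups of 4 samples, a sample was singled out when its gap to the nearest other sample took up nearly the whole range of the group (Dixon's criterion at 95%). Of 18 groups examined, 2 met this criterion, and chance gives about 1 in 20. The *Rara* level of HDAC1cKO-HDAC2HET replicate 1 was 7.14 FPKM, whereas the other 3 samples were at 5.07 to 5.41, and it was still below all WT samples. *Cyp26b1* was at 0.00601 FPKM in HDAC1cKO-HDAC2HET replicate 2 and listed at 0 in the other 3 samples. With 3 values of 0, any other value in the remaining sample would have met the criterion, so the rate of 1 in 20 does not apply to this gene. No cause was tested for either value.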

How the results depend on the processing

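In the HDAC1cKO-HDAC2HET experiment, the log2 fold change of *Crabp2* stayed between 4.01 and 4.12 under all 19 alternatives run. Restricting the table to rows with a gene name in every sample left 4291 genes that could be fitted, in place of 15131. Of these, 1025 passed the test, in place of 7836, and why the share differed was not tested. *Crabp2* was the 1 gene of the 9 that remained. Leaving out each replicate in turn gave 7131 to 7663 genes, with *Crabp2* at 4.02 to 4.12.

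The HDAC1cKO experiment was sensitive to the model. In place of 13 genes, 27 passed with a mean FPKM of at least 1, 8 without the intensity trend, 31 with array weights, 76 with sex as a covariate, 7 with named rows only, and 1337 with the fit over all 14 samples, which assumes 1 spread for both experiments. That last fit passed 2 pathway genes, *Crabp2* at 1.48 and *Rara*; no other alternative passed any of the 8. Leaving out replicates gave 11 to 57 genes, namely 31, 26, and 57 without WT replicates 1, 2, and 3 and 22 and 23 without HDAC1cKO replicates 1 and 2, and *Crabp2* at 1.10 to 1.73. The direction turned for *Rarg* (−0.10) and *Rdh10* (−0.040) with the sex covariate, and *Rdh10* ranged from −0.0019 to 0.11 without single replicates. *Dhrs3* ranged from −1.55 without WT replicate 1 to −0.73 without HDAC1cKO replicate 1. The cause was not tested.

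Same-numbered samples deviated together with correlations of only −0.02 to 0.06, and the fits treat the samples as unpaired. Such low correlations do not show that no samples were paired. With a replicate block, 5 genes passed in the HDAC1cKO experiment, none of them among the 8 pathway genes. A sex covariate was not run in the HDAC1cKO-HDAC2HET experiment, where *Xist* was present in all samples but lower in the HDAC1cKO-HDAC2HET group, at 26.0 to 33.7 compared with 58.9 to 65.2 FPKM. With 3 samples per group, WT samples that differ by over 2-fold limit what could be detected for *Crabp2* and *Dhrs3*.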
